A study of Mus musculus with 2 samples.

Results

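The genes described are those that encode mitochondrial ribosomal proteins, taken as every protein-coding gene of GENCODE mouse release M21 whose symbol begins with Mrpl or Mrps followed by a digit. There were 78 among 15622 genes with at least 1 read, 49 with the Mrpl (large subunit) and 29 with the Mrps (small subunit) prefix. RNA molecules selected by their poly(A) tails had been read directly on a nanopore, without copying to cDNA, from the interscapular depot of brown fat, which makes heat, in 1 control and 1 cold library. Both came from male wild-type C57BL/6N mice aged 20 weeks, with general housing at 22 to 24 °C. Cold mice, 3 by the series' description, were housed alone at 4 °C for 24 h, and how their RNA was combined into 1 library is not stated in the sources used here. The control is known only by its treatment label, ctrl, with no number of mice given. Since each group is 1 library, replicate spread could not be measured and no p-value is given. Ranges in parentheses are 95% counting intervals: they set 1 library against another, and say nothing of mouse-to-mouse variation.

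Mitochondria carry their own ribosome, which translates the few proteins encoded in mitochondrial DNA, all of them parts of the respiratory chain and of ATP synthase. Its 12S and 16S rRNAs (mt-Rnr1 and mt-Rnr2) are transcribed inside the organelle, whereas every one of its proteins is encoded in the nucleus, made in the cytosol and imported. Some of these proteins have counterparts in the bacterial ribosome and others are found only in mitochondria. Brown adipocytes are packed with mitochondria, and their respiratory chain drives the proton gradient that Ucp1 turns into heat. The prefix is not a perfect guide to the structure: Mrps18a and Mrps30 sit in the large subunit, and Mrps36 is now assigned to the oxoglutarate dehydrogenase complex of the citric acid cycle.

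The library check was brief. The control held 1698124 reads and the cold library 1215617. All 11 brown adipocyte markers had reads, at 2.40% of control and 3.38% of cold reads. They did not move together, with 8 intervals of the ratio above 1, 1 below it and 2 that included it. Of the lists for other cell types, the 10 skeletal muscle markers differed most, from 0.0328% to 0.167% of reads and every one of the 10 intervals was above 1. The 6 endothelial markers went from 0.0232% to 0.0292%, the 6 macrophage markers from 0.00453% to 0.00798% and the 4 white adipocyte markers from 0.0114% to 0.0333%, though Lep, with 36 and 5 reads, was the lower and the other 3 the higher in the cold library. Fibroblast markers (5 genes) stood at 0.0177% and 0.0185%, erythrocyte markers (3) at 0.107% and 0.111%, nerve and Schwann cell markers (4) at 0.00713% and 0.00691%, and the 5 lymphocyte markers at 5 reads in each library. Every listed marker had a read in at least 1 library, and the part of these cells in the values below was not tested. In bulk tissue, fewer cells of a type and less RNA per cell cannot be told apart.

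The comparison asks how transcripts of the mitochondrial ribosome differed in brown fat after a day in the cold. The mRNAs of its proteins lay close to equal in both libraries, in contrast to the rRNAs they bind. All 78 genes were read in both libraries and passed the minimum of 20 summed reads, with 29 to 704 control reads (median 117) and 31 to 506 cold reads (median 89). Together they took 0.695% of control reads (0.683 to 0.708) and 0.742% of cold reads (0.727 to 0.757). On the trimmed-mean (TMM) scale, on which the median of all genes is at a log2 ratio of 0.00, their summed reads were 1.06-fold lower in the cold library (1.03 to 1.09), but with total counts they were 1.07-fold higher (1.04 to 1.10). The sign of the whole family therefore depended on the scaling. Total counts moved the median of all genes by 0.18 on the log2 scale, and total counts without mitochondrially encoded genes by 0.13. The members' median minus that of all genes was -0.09, a difference that no scaling can alter, since each shifts all genes alike.

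**Figure D1:**
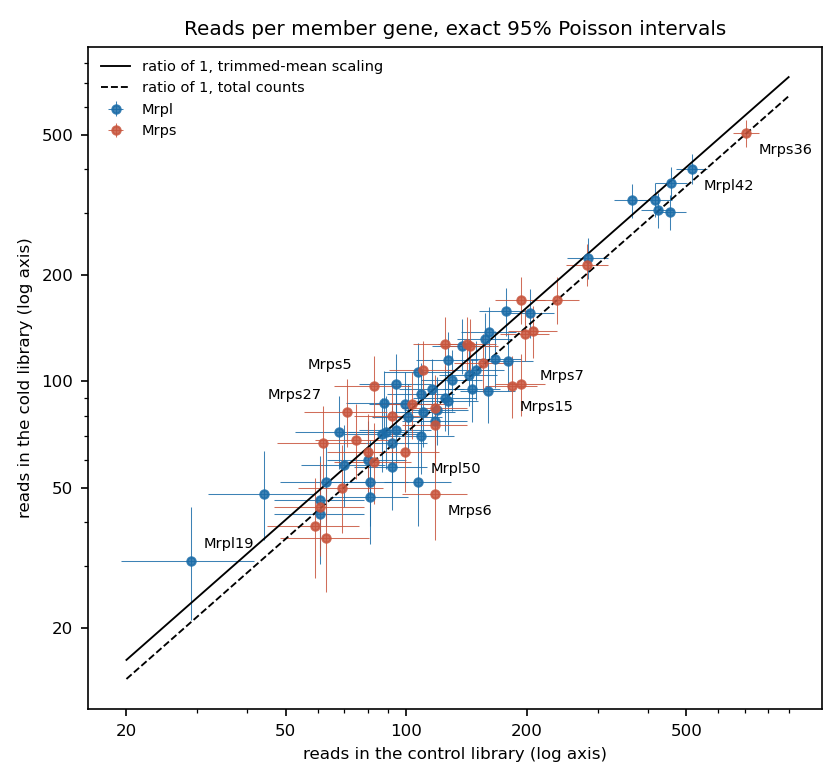
Reads of each of the 78 genes in the control library (x axis) and the cold library (y axis), both on log axes, with exact 95% Poisson intervals; blue points are Mrpl and red points Mrps genes. Most points lie along the lines of equal level under both scalings, and Mrps6, Mrpl50, Mrps7 and Mrps15 lie below both lines.

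The members' median log2 ratio was -0.09, with a middle range from -0.23 to 0.10, against -0.34 to 0.34 for 7529 genes with at least 20 summed reads. The log2 ratio was below 0 for 49 members, or 62.8%, where 49.9% of all genes were, and above 0 for 29. With total counts this turned to 25 below and 53 above. The interval excluded 1 on the lower side for 8 members, or 10.3%, where 11.3% of all genes did. It did so on the higher side for 2 members, where 11.3% of all genes did as well. At least 1.5-fold differences with such an interval were found for 4 members on the lower side (7.44% of all genes) and for 0 on the higher side (8.06% of all genes). On this scale no member was 2-fold apart in either direction, but with DESeq2 size factors Mrps6 was, at 2.03-fold lower. Of all genes, on the TMM scale, 4.20% were 2-fold apart on the higher and 4.08% on the lower side. Most members are well read, 74 of them with at least 100 summed reads. Among 2677 genes read that often, 20.1% had a lower and 19.2% a higher interval, 9.08% and 10.2% were at least 1.5-fold lower and higher, and 2.35% and 3.47% at least 2-fold. The members' shares in each class were below these, as a description with no test. With total counts the intervals were above 1 for 10 and below it for 4 members, where 18.1% and 6.20% of all genes were. Of the 78 intervals, 68 included the members' own pooled ratio of 0.942 and 10 (12.8%) excluded it, where 22.6% of all genes excluded it. That ratio comes from the members themselves, so some agreement with it is built in. Of the members' ratios, 57 were within 1.25-fold of 1, and the share of all genes so near 1 is not given. The members' median interval spanned 1.79-fold from its lower to its upper bound. For most single members a difference of the size measured was thus not detectable at this depth.

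**Figure D2:**
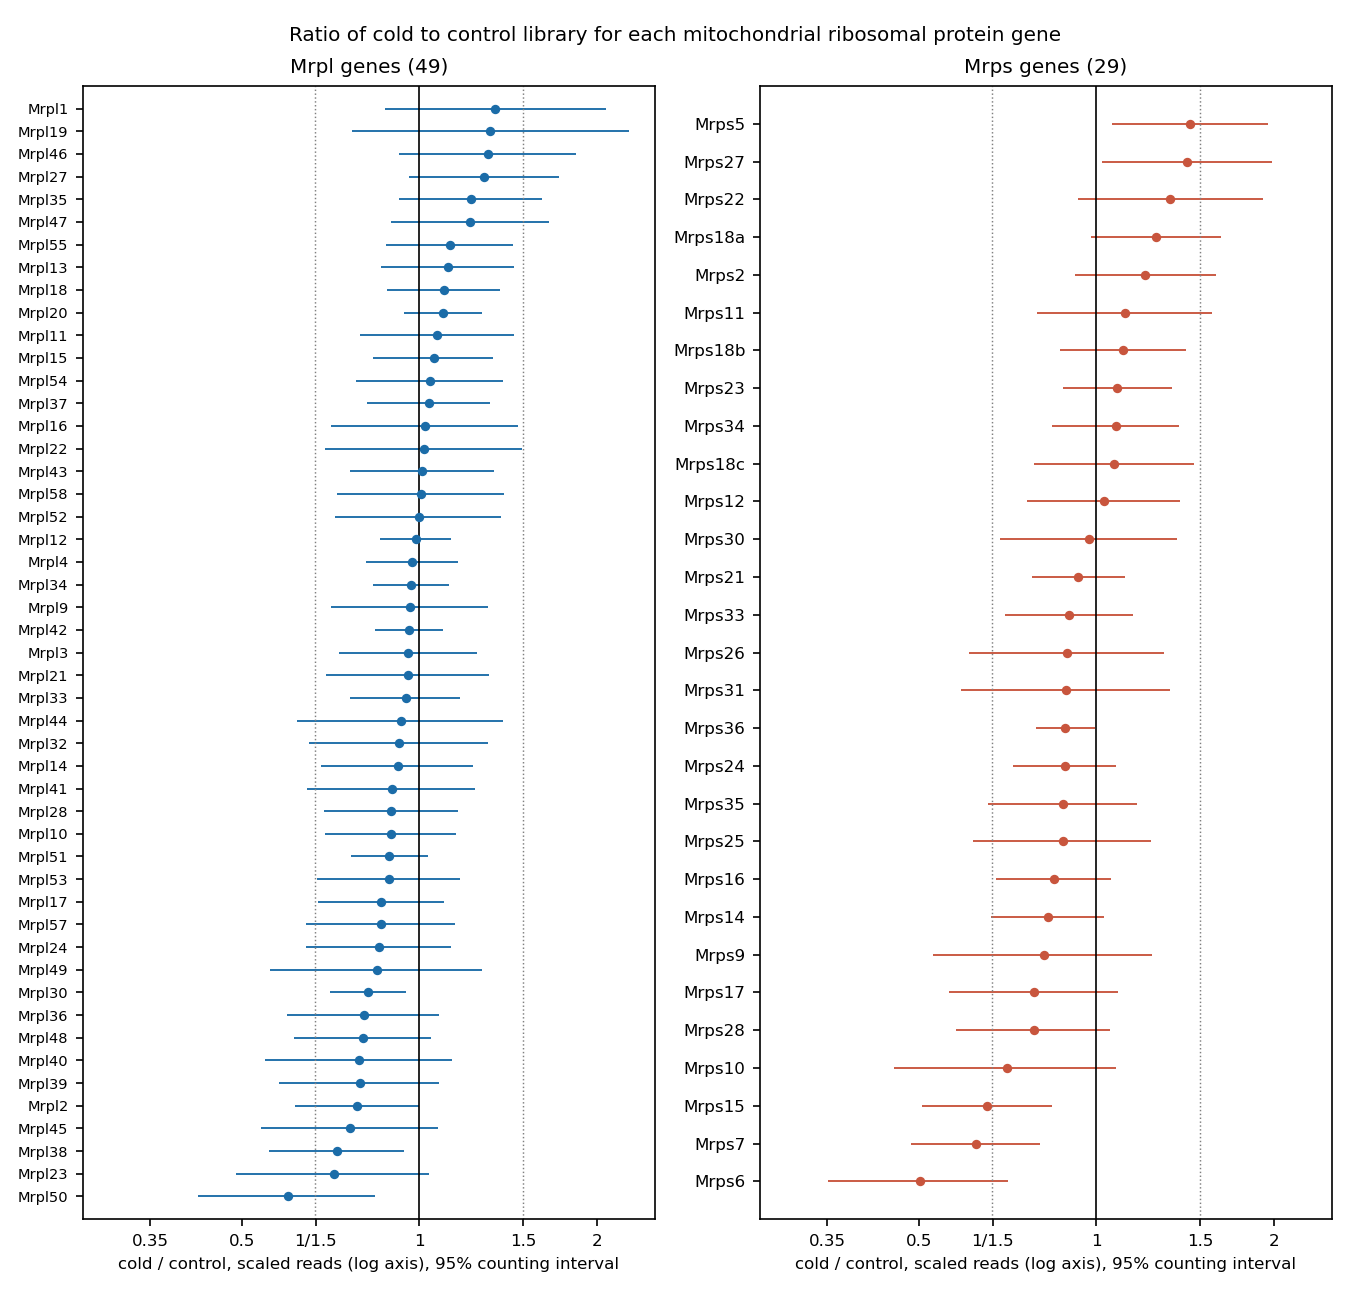
Ratio of cold to control for every member, on a log axis, with TMM scaling and 95% counting intervals; dotted lines mark 1.5-fold in each direction. Most intervals cross 1, while those of Mrps6, Mrps7, Mrps15 and Mrpl50 lie below it and those of Mrps5 and Mrps27 above it, as they also do with total counts.

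Large-subunit genes had a median log2 ratio of -0.06 and small-subunit genes one of -0.16, and with total counts these were 0.12 and 0.02. For every 100 Mrpl reads the control had 55.8 Mrps reads (53.7 to 57.9) and the cold library 54.3 (52.0 to 56.7). Their ratio, which no scaling touches, was 0.973 (0.919 to 1.03). A difference between the subunits was thus not detectable. Assigning Mrps18a and Mrps30 to the large subunit and leaving out Mrps36 gave 0.963 (0.905 to 1.02). Proteins with a bacterial counterpart (46 genes) had a summed ratio of 0.942 (0.909 to 0.976) and those found only in mitochondria (31 genes) one of 0.952 (0.908 to 0.997). Both were above 1 with total counts, at 1.07 and 1.08. Within the small subunit, the 16 genes with a bacterial counterpart stood at 0.863 (0.808 to 0.921) and the 10 without at 1.04 (0.949 to 1.13). With total counts the interval of the former included 1, at 0.977 (0.915 to 1.04), and that of the latter lay above it, at 1.17 (1.07 to 1.28). Mrps6, Mrps7 and Mrps15 all belong to the small-subunit genes with a counterpart and weigh on their sum. In the large subunit the order was the reverse. The 30 genes with a counterpart stood at 0.978 (0.937 to 1.02) and the 21 without at 0.920 (0.870 to 0.972). With total counts these were 1.11 (1.06 to 1.16) and 1.04 (0.985 to 1.10). The 2 classes thus did not differ in the same direction in both subunits.

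Mrps6, the counterpart of a bacterial protein of the small subunit's platform, was the lowest member. It had 118 control and 48 cold reads, or 69.5 and 39.5 reads per 1000000 (RPM), and was 1.99-fold lower (1.41 to 2.85). The gene lies on chromosome 16 of GRCm38 (92058270 to 92112227, plus strand), and the sodium and inositol cotransporter gene Slc5a3 lies within its span on the same strand, with 9 and 11 reads. Mrps7, another small-subunit protein with a bacterial counterpart, had 193 and 98 reads and was 1.60-fold lower (1.25 to 2.06). Its span on chromosome 11 runs from 115603925 to 115608036. Mrps15, on chromosome 4 (126046925 to 126055532), had 183 and 97 reads and was 1.53-fold lower (1.19 to 1.98). The intervals of all 3 lay below 1 with total counts too. Mrps10 (63 and 36 reads) and Mrps28 (118 and 75 reads) followed at 1.42-fold (0.928 to 2.20) and 1.28-fold lower (0.947 to 1.73), with intervals that included 1.

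At the other end of the small subunit stood Mrps5, one of the proteins around the mRNA channel. It had 83 control and 97 cold reads, the higher count being in the shallower library, and was 1.44-fold higher (1.06 to 1.96). Mrps27, an RNA-binding protein of the pentatricopeptide repeat family found only in mitochondria, had 71 and 82 reads and was 1.42-fold higher (1.02 to 1.99). Mrps22 (62 and 67 reads), Mrps18a (125 and 128) and Mrps2 (110 and 108) followed at 1.33-fold (0.929 to 1.91), 1.26-fold (0.979 to 1.63) and 1.21-fold (0.920 to 1.59). Their intervals included 1 here and lay above it with total counts. Mrps5 lies on chromosome 2 (127587222 to 127606829) and Mrps27 on chromosome 13 (99344786 to 99415562).

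In the large subunit, Mrpl50, a protein found only in mitochondria, was the lowest. Its 107 and 52 reads made it 1.67-fold lower (1.19 to 2.37), and it lies on chromosome 4 (49512596 to 49521093). Mrpl38, with 160 and 94 reads, was 1.38-fold lower (1.06 to 1.80), and Mrpl2, a core protein near the peptidyl transferase centre, had 179 and 114 reads and a ratio of 0.785 (0.615 to 0.999). Mrpl30, with 455 and 302 reads, was 1.22-fold lower (1.05 to 1.42). The intervals of Mrpl38, Mrpl2 and Mrpl30 included 1 with total counts. Mrpl45, which anchors the ribosome to the inner membrane, had 92 and 57 reads and a ratio of 0.764 (0.539 to 1.07). Mrpl23 had 81 and 47 reads and a ratio of 0.716 (0.489 to 1.04). Its processed pseudogene Mrpl23-ps1, which shares 92.7% of its 31-base words with Mrpl23, took 27 and 23 reads, so the split between the gene and its copy is uncertain.

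The 5 highest ratios of the large subunit were led by a thinly read gene. Mrpl1, which forms the stalk where spent tRNA leaves, had 44 and 48 reads and a ratio of 1.35 (0.875 to 2.07). Mrpl19, the least read member, had 29 and 31 reads and a ratio of 1.32 (0.769 to 2.27). Mrpl46 (68 and 72 reads), Mrpl27 (94 and 98) and Mrpl35 (107 and 106) were at 1.31 (0.924 to 1.85), 1.29 (0.959 to 1.72) and 1.22 (0.925 to 1.61). All 5 intervals included 1, and those of Mrpl46, Mrpl27 and Mrpl35 lay above 1 with total counts.

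Of the 4 most abundant members by symbol in each subunit, all but Mrpl30, described above at 1.22-fold lower, were within 1.13-fold of equal. Each read stands for 1 RNA molecule, so levels are given as RPM, which needs no correction for length. Values per kilobase of the gene's most read transcript stand beside some of them as a description only. Mrps36 led on both scales, with 415 and 416 RPM, or 591 and 594 per kilobase, in the control and the cold library. Its 704 and 506 reads gave a log2 ratio of -0.17, or 0.01 if scaled by total counts. Mrpl42 was next on both scales, at 303 and 329.9 RPM, or 459 and 499 per kilobase, with a ratio of 0.960 (0.841 to 1.10). Mrpl12, which forms the stalk that recruits translation factors, had 269.7 and 301 RPM and a ratio of 0.985 (0.857 to 1.13). Mrpl34, at 246 and 269.8 RPM, had a ratio of 0.968 (0.835 to 1.12). For Mrps21 and Mrps24 the ratios were 0.932 (0.777 to 1.12) and 0.885 (0.722 to 1.08), and for Mrps23, with 193 and 170 reads, 1.09 (0.879 to 1.34). The interval of Mrps36, at 0.886 (0.789 to 0.995), excluded 1 as that of Mrpl30 did, and those of the other 6 included it. With total counts all 8 included 1. The median level was 68.3 RPM over the Mrpl and 69.5 over the Mrps genes in the control, and 74.0 and 70.7 in the cold library.

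Promoter sequences from RefSeq on GRCm38.p6 were matched by symbol for 69 of the 78 genes, in 75 windows running from 250 bases before to 50 after an annotated start. Letters of known factors of mitochondrial genes were searched on both strands. CCGGAAG, the core bound by ETS factors such as GABP (also called NRF-2), was in the windows of 26 of 69 members (37.7%), against 23.6% of 5805 other protein-coding genes with at least 20 summed reads and 8.86% of all 32851 windows. The YY1 letters AAGATGGC were in 12 (17.4%, against 6.37% and 2.75%). The NRF-1 palindrome with 1 inner letter left free was in 13 (18.8%, against 13.5% and 4.60%), and the full palindrome, which those matches include, in 3 (4.35%, against 2.70% and 0.971%). The E-box CACGTG was in 5 (7.25%, against 12.6% and 7.15%), the cAMP response element TGACGTCA in 2 (2.90%, against 3.91% and 1.79%), the TATA letters TATAAA in 5 (7.25%, against 8.27% and 13.6%), and the estrogen-related receptor element TCAAGGTCA in 0 (against 0.327% and 0.423%). A match is a description of letters and not a bound site. Members with CCGGAAG had a median log2 ratio of -0.02 and those without one of -0.16, while the other genes stood at 0.03 and 0.00. The sign of the members' values depends on the scaling, but their difference does not.

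Stretches before the start that overlap no annotated exon are shown for the lowest member and for 3 others chosen after their values were seen. Capitals mark CCGGAAG or its reverse complement. They are read from the gene's strand, at chr16:92058086-92058269 (plus), chr13:99344706-99344785 (plus), chr9:98601680-98601929 (minus) and chr7:28741822-28741991 (minus).
Mrps6: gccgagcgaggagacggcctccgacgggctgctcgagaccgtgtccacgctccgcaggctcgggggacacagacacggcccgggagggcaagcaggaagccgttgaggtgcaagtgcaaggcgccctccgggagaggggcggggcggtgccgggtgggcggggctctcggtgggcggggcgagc
Mrps27: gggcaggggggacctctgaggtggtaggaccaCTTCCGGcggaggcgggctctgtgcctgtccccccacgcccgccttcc
Mrps22: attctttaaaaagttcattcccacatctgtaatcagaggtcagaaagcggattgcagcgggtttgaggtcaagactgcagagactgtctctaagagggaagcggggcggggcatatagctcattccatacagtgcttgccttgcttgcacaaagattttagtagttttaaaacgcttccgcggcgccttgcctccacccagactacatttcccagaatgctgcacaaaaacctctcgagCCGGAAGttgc
Mrps12: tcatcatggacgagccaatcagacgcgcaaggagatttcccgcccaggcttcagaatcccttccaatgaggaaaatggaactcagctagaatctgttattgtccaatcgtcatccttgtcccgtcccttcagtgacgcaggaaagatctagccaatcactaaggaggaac
The stretch of Mrps6, the lowest member, holds none of the ETS, YY1 or NRF-1 palindrome letters. Those of Mrps27 and Mrps22, both among the 5 highest small-subunit genes, hold CCGGAAG once each, as does the window of Mrps18a. Mrps5, the highest member, and Mrps2, also among those 5, have no CCGGAAG in their windows. Nor do the low Mrps7, Mrps15 and Mrps10. Of the 5 highest large-subunit genes, Mrpl27 holds it, Mrpl1, Mrpl46 and Mrpl35 do not, and Mrpl19 has no window. The low Mrpl50, Mrpl23, Mrpl45 and Mrpl2 lack it too, but Mrpl48 (log2 ratio -0.31), Mrps16 (-0.24) and Mrpl17 (-0.21) hold it. The part of the motif in these ratios was not tested. The window of Mrps12 holds CCGGAAG and the YY1 letters, both outside the stretch shown. That stretch fills the gap between the start of Mrps12 and that of Sars2, the mitochondrial seryl-tRNA synthetase, which is read in the other direction.

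Such divergent starts were common among the members. A protein-coding gene began on the other strand between 200 bases inside and 1000 bases before the start for 23 of the 78 (29.5%), against 984 of 7346 protein-coding genes with at least 20 summed reads (13.4%). Of these partners 13 had at least 20 summed reads themselves, and 10 of the 13 lay on the same side of a log2 ratio of 0 as their member on the TMM scale, but 7 of 13 with total counts. On the TMM scale the partners' median was -0.16 and most members were also below 0, which by itself makes like signs more frequent. The rate for other divergent pairs is not given. The sizes did not go together: over these 13 pairs of genes Spearman's rho was -0.12 and Pearson's r -0.02. Mrps27 at 0.51 stood beside Ptcd2, another mitochondrial pentatricopeptide repeat protein, at 0.40 (68 and 73 reads). Mrpl36 at -0.31 stood beside Ndufs6, a subunit of respiratory complex I, at -0.16 (847 and 616 reads). Mrpl49 at -0.23 stood beside Fau, which encodes a protein of the cytosolic ribosome, at -0.28 (523 and 348 reads), and Mrpl32 at -0.11 beside the proteasome subunit Psma2 at -0.07 (194 and 150 reads). Mrps12 at 0.04 and Sars2 at 0.78 (25 and 35 reads) differed more, and 3 pairs lay on opposite sides. Mrps7 at -0.67 stood beside Gga3 at 0.81 on only 9 and 13 reads, Mrps18b at 0.15 beside Ppp1r10 at -0.72 (29 and 14 reads), and Mrps34 at 0.11 beside Eme2 at -0.60 (21 and 11 reads).

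Reads were also listed by transcript, and 223 of the members' 343 annotated transcripts had at least 1. Protein-coding transcripts held 92.4% of the members' control reads (91.9 to 92.8) and 93.0% of their cold reads (92.5 to 93.5). The difference of 0.66 percentage points had an interval from -0.06 to 1.36, so none was detectable. Transcripts annotated for nonsense-mediated decay, a pathway that degrades mRNAs with an early stop, held 3.04% of control (2.74 to 3.37) and 2.45% of cold reads (2.14 to 2.79). That was 0.59 points lower, with an interval of the difference from -1.03 to -0.14. Over all protein-coding genes this share was 1.90% of control and 2.04% of cold reads. Retained-intron transcripts held 2.95% (2.65 to 3.27) and 2.84% (2.51 to 3.20). In 44 of the 78 genes a single transcript held at least 90% of reads in both libraries.

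Of 222 transcripts compared between the libraries, the interval of the difference in share excluded 0 for 7, 4 above and 3 below, in 4 of 77 genes. Mrpl13 and Mrpl3, described below, are among these 4 genes. Among so many intervals some are likely to exclude 0 by counting error alone. Shares of the same gene's transcripts also mirror each other, so the 7 are not independent. The rate over the transcripts of all genes is not given, so the count of 7 cannot be told from counting error. Of 15 members with reads on decay-annotated transcripts the share was lower in the cold library for 12, among them all 7 with at least 20 such reads. Among those 7, only the intervals of Mrpl13 and Mrpl3 excluded 0. How many of all genes had a lower share is not given, so these counts cannot be read as a trait of the family. Mrpl13, a core large-subunit protein, had 19 of 127 control reads (14.96%) and 5 of 115 cold reads (4.35%) on its decay-annotated form, a difference of -10.6 points (-18.3 to -3.12). Mrpl3, which lies near the peptidyl transferase centre, had 28 of 130 (21.5%) and 9 of 101 (8.91%), a difference of -12.6 points (-21.5 to -3.16). Its coding form Mrpl3-201 held 66.2% and 80.2% of its reads, a difference of 14.0 points (2.43 to 24.8). Mrpl32, whose cleavage by an inner-membrane protease precedes ribosome assembly, had 42 of 80 (52.5%) and 24 of 60 (40.0%), with an interval from -28.1 to 4.12 points. The intervals of Mrps14, Mrpl42, Mrps11 and Mrps34 also included 0. The reads of Mrps34 are uncertain in kind, since transcripts of its neighbour Nme3 on the same strand share 76.4 to 100% of their 31-base words with it and were given only 9 and 5 reads. In Mrpl23, the coding form Mrpl23-201 held 50.6% and 38.3%, with an interval from -28.7 to 5.50 points. A read that stops short of the 5' end can match several forms, and how such reads were counted is not given in the sources used here.

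**Figure D3:**
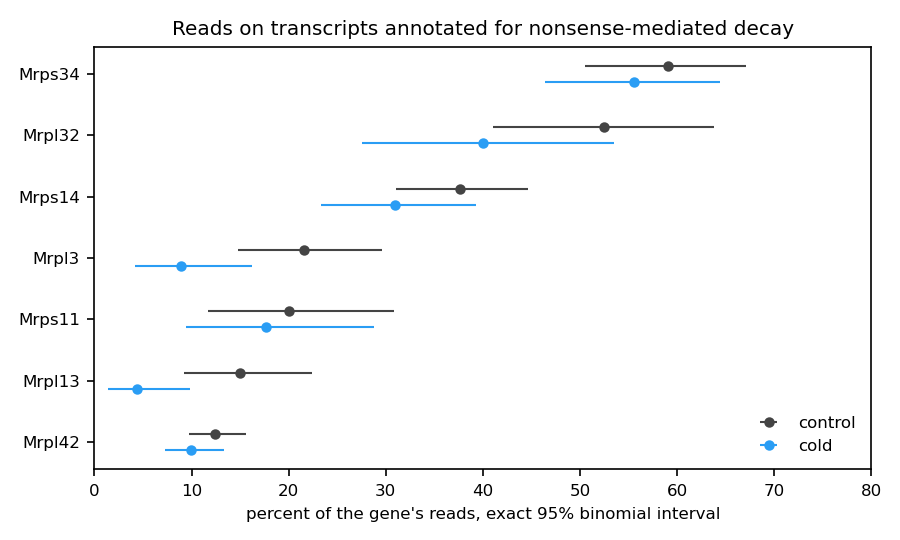
Percent of a member's reads on transcripts annotated for nonsense-mediated decay in the control (dark) and cold (blue) library, with exact 95% binomial intervals, for the 7 members with at least 20 such reads. The cold value is the lower in each, and the interval of the difference excludes 0 for Mrpl13 and Mrpl3.

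The other parts of the mitochondrial translation machinery were read from lists written by function. Of 5 further ribosomal proteins named outside the Mrp series, 2 were at least 1.5-fold lower on the TMM scale, where 7.44% of all genes were. With total counts 0 were, and the share of all genes on that scale is not given. So few genes do not make a share of their own. Gadd45gip1, a large-subunit protein at the exit tunnel, had 136 and 66 reads and was 1.67-fold lower (1.24 to 2.28). Chchd1, of the small subunit, had 149 and 75 and was 1.61-fold lower (1.21 to 2.16). Dap3, the GTP-binding protein of the small subunit, had 93 and 59 reads and a ratio of 0.782 (0.555 to 1.10). With total counts Gadd45gip1 and Chchd1 were 1.48-fold (1.09 to 2.01) and 1.42-fold lower (1.07 to 1.90). Aurkaip1 and Ptcd3 were at 0.964 (0.776 to 1.20) and 1.13 (0.880 to 1.44).

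Factors that build the ribosome or modify its rRNA had a median log2 ratio of 0.14 over 25 of 27 genes, where 1 interval (4.00%) excluded 1 on the lower side and 0 on the higher, against 11.3% of all genes on each side. The member below was Rbfa, which binds the maturing small subunit, with 62 and 29 reads and 1.73-fold lower (1.10 to 2.80), an interval that included 1 with total counts (0.970 to 2.47). The abundant C1qbp had 193 and 173 reads and a ratio of 1.11 (0.895 to 1.36), and Mterf4, which targets an rRNA methyltransferase, 29 and 35 reads and 1.49 (0.884 to 2.52). Its partner Nsun4 had 43 and 22 reads and a ratio of 0.631 (0.359 to 1.08).

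Translation factors had a median of -0.12 over 16 of 17 genes, which was 0.06 with total counts, where 2 intervals (12.5%, near the 11.3% of all genes) excluded 1 on the higher side and 0 on the lower. Gfm1, the elongation factor that moves the ribosome along the mRNA, had 119 and 159 reads and was 1.65-fold higher (1.29 to 2.11). Letm1, an inner-membrane protein on the list but not a translation factor in the strict sense, had 394 and 445 reads. It was 1.39-fold higher (1.21 to 1.60) and gave the other of the 2 intervals. Tufm, which brings aminoacyl-tRNA to the ribosome, had 324 and 276 reads and a ratio of 1.05 (0.891 to 1.24), and the initiation factor Mtif3 41 and 22 reads and 0.662 (0.375 to 1.14).

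The mitochondrial aminoacyl-tRNA synthetases, which charge tRNAs with their amino acids, had a median of 0.07 over 19 of 22 genes, where 3 intervals (15.8%) excluded 1 on the higher side and 1 (5.26%) on the lower, against 11.3% of all genes on each. Cars2, for cysteine, stood apart with 40 and 179 reads and was 5.52-fold higher (3.90 to 7.98). Sars2 was 1.73-fold higher (1.00 to 3.01), with an interval that included 1 under DESeq2 size factors, and Gars, whose product also serves the cytosol, 1.42-fold higher (1.12 to 1.80) on 133 and 153 reads. Fars2, for phenylalanine, was 1.60-fold lower (1.10 to 2.37) on 85 and 43 reads, but with total counts its interval (0.969 to 2.09) included 1.

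**Figure D4:**
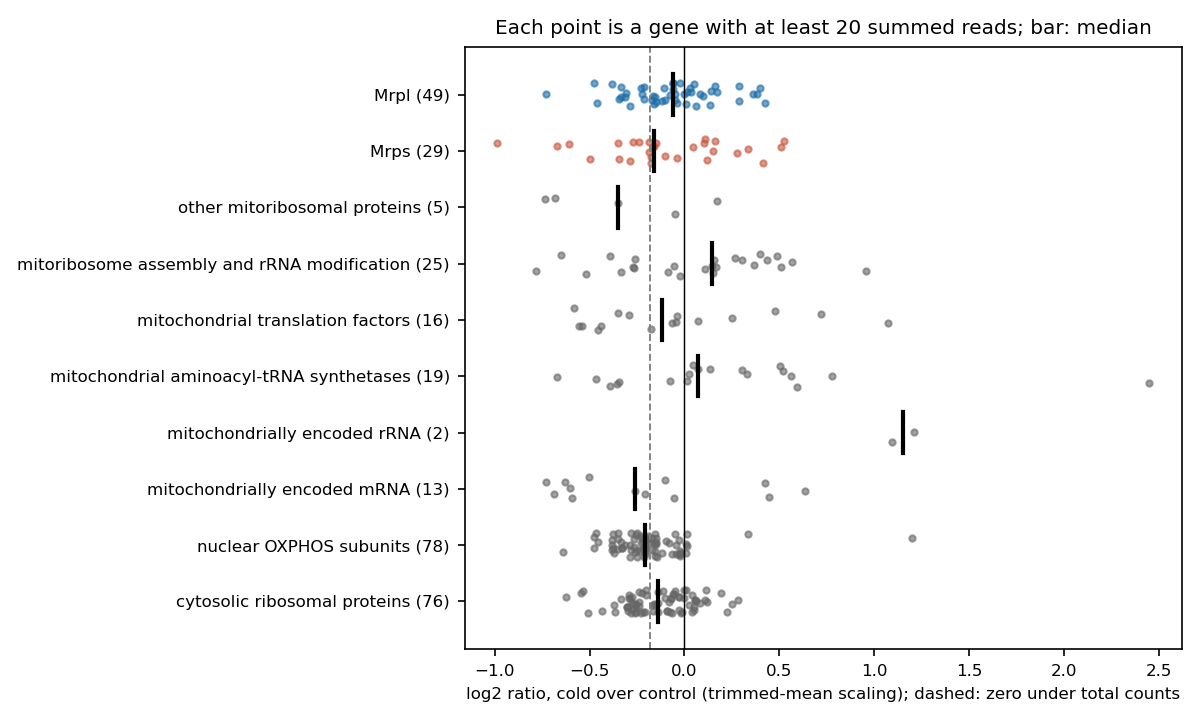
Log2 ratio of cold to control (TMM scaling) for each gene with at least 20 summed reads in the mitochondrial ribosome and related lists; black bars are medians, the solid line is 0 and the dashed line marks where 0 falls with total counts. The Mrpl and Mrps medians of -0.06 and -0.16 lie between these lines, so their sign changes with total counts, while both rRNAs lie above 1.

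Set against what the ribosome consists of and makes, the members' mRNAs differed far less than the rRNAs. Within each library, mt-Rnr2 had 304 control reads (296 to 312) and 736 cold reads (716 to 756) for every 100 of the structural large-subunit genes, a 2.42-fold higher ratio (2.33 to 2.51). For mt-Rnr1 and the small subunit these were 249.7 (239.9 to 260.1) and 579 (555 to 605), a 2.32-fold higher ratio (2.19 to 2.46). These rRNA reads are those caught by oligo(dT) and so need not follow total rRNA. Per 100 reads of the 13 mitochondrially encoded mRNAs there were 2.33 member reads (2.29 to 2.38) and 3.03 (2.97 to 3.09), a ratio of 1.30 (1.26 to 1.33). Per 100 reads of 78 nuclear genes of oxidative phosphorylation there were 9.24 (9.07 to 9.42) and 10.03 (9.81 to 10.2), a ratio of 1.09 (1.05 to 1.12). Per 100 reads of 76 cytosolic ribosomal protein genes, there were 28.3 (27.7 to 28.9) and 29.3 (28.6 to 29.9), a ratio of 1.03 (1.00 to 1.07). The median log2 ratios were -0.21 for the oxidative phosphorylation genes, with 58 of 78 intervals below 1, and -0.14 for the cytosolic ribosomal proteins, with 32 of 76, where 11.3% of all genes were. With total counts these medians were -0.03 and 0.04. On that scale 17 of 78 (21.8%) and 6 of 76 intervals (7.89%) lay below 1, where 6.20% of all genes did. Above 1 lay 13 of 78 (16.7%) and 17 of 76 (22.4%), where 18.1% of all genes did. The genes of both lists are read more deeply than the members, at 127772 and 41703 reads in the control against 11805, which narrows their intervals.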

How the data were processed

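The authors deposited whole-number read counts per Ensembl transcript for each library, with no normalization and no transcripts at 0. The submitters' processing notes name minimap2 and the build GRCm38, while the sources used here give neither versions nor how reads matching several transcripts were counted. Per the labels' protocols, 500 ng of poly(A)-selected RNA entered a direct RNA kit. The labels describe the same cold treatment for both samples and another fat depot in the extraction text, so groups were taken from the treatment characteristic.

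Reads were summed to genes by identifier without version (GENCODE M21), and 0.0571% and 0.0652% of reads without a gene were kept in the library sizes. Effective sizes came from TMM factors of edgeR 4.0.16 (0.940 and 1.06), and DESeq2 1.42.0 size factors were an alternative. Ratios have exact Clopper-Pearson 95% intervals, log2 ratios a prior of 0.5 reads, and differences of shares Newcombe intervals. These cover counting error only. The minimum was 20 summed reads. Calculations were tested on simulated data.

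Members and lists were chosen with earlier results of these data known. Named are, in each subunit by symbol, the 5 lowest and the 5 highest members by ratio (50 or more summed reads) and the 4 most abundant, then the 4 members with the largest transcript-share differences (at least 30 reads per library), and, from the lists, some of the 2 highest, 2 lowest and 2 most abundant genes. Genes named for a divergent start, an overlap or a transcript type, Dap3, the comparison at 100 reads, the other scalings of the related lists and the promoters shown were chosen after their values were seen. Cytosolic ribosomal proteins were taken by symbol. Spans that overlap another gene (42 of 78 members) can share reads. Only 4 members overlap a protein-coding gene on the same strand, and 23 overlap one on the other strand.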

Additional observations from a re-analysis of the deposited data

How the results depend on the processing

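Scaling set the sign of the family's values. With total counts the summed log2 ratio turned from -0.09 to 0.094, the median of all members to 0.092, that of the Mrpl genes to 0.12 and that of the Mrps genes to 0.022, and 1 member was at least 1.5-fold lower and 3 at least 1.5-fold higher. With total counts without mitochondrially encoded genes these were 0.046, 0.044, 0.072 and -0.026, with 2 members lower and 2 higher. The share of all genes at 1.5-fold is not given for either scaling, so these counts cannot be read as a trait of the family. By the interval alone, 18.1% of all genes were above 1 and 6.20% below it with total counts. Without mitochondrially encoded genes these shares were 15.7% and 7.46%. Mrps36 turned to 0.0062 with total counts. From the most abundant transcript alone the Mrps median was -0.11 and the difference between Mrpl and Mrps medians 0.029, in place of 0.10. The cause was not tested. The other 50 of 64 alternatives left these summary values on the same side and near their main value. Over 31 named genes and 186 alternatives added after seeing the data, 164 kept the same side of the interval, 8 lost it and 13 gained it. In the remaining 1, Mrps36 with total counts, the log2 ratio changed sign and the interval included 1. No paired analysis was possible because each group has 1 library. Counts of 29 to 704 reads per gene limit what single members can show.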

Other observations

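Ratios are set here beside transcript length. Protein-coding genes whose most read transcript was under 500 bases had a median log2 ratio of -0.23 (48 genes), and the members among them one of -0.08 (3 genes). From 500 to 1000 bases these were -0.14 (500 genes) and -0.09 (22 members), and from 1000 to 1500 bases -0.08 (785 genes) and -0.04 (23 members). From 1500 to 2500 bases the genes stood at 0.01 (1694) and the members at -0.16 (11), from 2500 to 4000 bases at 0.05 (2014) and -0.04 (11), and above that at 0.04 (2305) and -0.19 (8). The members' median was thus above that of genes of like length in the 3 shorter ranges and below it in the 3 longer ones. Set against 5495 protein-coding genes of 607 to 4559 bases, the members' median differed by -0.09. That range holds most of the 7346 protein-coding genes, and their median of 0.00 is that of all genes. This single comparison therefore does not adjust for length. All of these medians are higher by 0.18 with total counts, so several of the negative ones turn positive. The members' most read transcripts ran from 418 to 7300 bases, with a median of 1284. The part of length in the members' values was not tested.

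Members lie on 17 chromosomes, with 11 of them on chromosome 11. Mrpl46 and Mrps11 overlap at their starts on opposite strands of chromosome 7, with 68 and 72 reads and 75 and 68 reads in the control and the cold library. In Mrpl28, Mrpl32, Mrps26 and Mrps34 the most read transcript was one not annotated as protein-coding. It held 73 of 143 control reads of Mrpl28, a retained-intron form, and 49 of 104 in the cold library. For Mrps26, again a retained-intron form, it was 37 of 69 and 32 of 50.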
